A study of Mus musculus with 3 samples.

Results

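A group of 10 genes that mark megakaryocytes and platelets was followed in tumours that grew in the spleens of mice: Pf4, Ppbp, Itga2b, Itgb3, Gp1ba, Gp1bb, Gp5, Gp6, Gp9 and Tubb1. They were taken by name, though with earlier results of these data known, and every array probe whose RefSeq transcript belongs to one of them was read. That gave 13 probes for the 10 genes, out of 32994 probes for 22911 genes that could be named in all. RNA came from 2 tumours of LSD1 × p53+/- genotype, labelled #2 and #3, and from 1 tumour of p53+/- genotype. All 3 mice were males of 10 weeks, and all carried the p53+/- genotype, so p53 wild-type tissue does not enter the comparison. The labels do not explain the LSD1 element of the genotype, nor whether the number stands for a mouse or a line, and it is used here as a group name. The tissue is labelled as splenic tumour while the growth protocol speaks of untreated cells isolated from spleens, and no pooling of animals is stated.

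Megakaryocytes are large polyploid cells of bone marrow and, in the mouse, also of the spleen, where they shed platelets into the blood. The spleen also stores and clears platelets, so RNA of either origin can reach a preparation of splenic cells. Platelets catch von Willebrand factor through the GPIb-IX-V complex, collagen through glycoprotein VI, and fibrinogen through the integrin αIIbβ3, and they release chemokines from their α granules. In a mixed tissue, fewer cells of this lineage and less of each RNA per cell cannot be told apart.

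All 10 genes were measured well above background on all 3 arrays, and none lay 2-fold or more above, or 2-fold or more below, the p53+/- tumour in both LSD1 × p53+/- tumours. That compares with 3.48% of the 15240 genes tested that were at least 2-fold higher in both, and 5.38% at least 2-fold lower in both. The group held 7 of 10 genes within 1.5-fold of the p53+/- tumour in both LSD1 × p53+/- tumours, against 32.6% of all genes tested and 37.5% of those above background on all arrays. Under other scalings that count was 8 with normexp background correction (45.3% of all genes tested) and 7 with quantile normalization (34.6%). It was 6 with the 75th percentile over detected probes (34.0%) and 5 in the authors' value table (33.6%). Between the LSD1 × p53+/- tumours, 9 of 10 genes were higher in tumour #3 than in tumour #2, by 1.03-fold for Gp1ba to 2.19-fold for Gp9, against 55.8% of all genes tested and 57.5% of those above background on all arrays. The exception was Itgb3, the β3 integrin chain, which was 3.30-fold higher in tumour #2 than in tumour #3.

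Promoter sequences were set beside the group because many megakaryocyte genes are known to be driven by GATA1 together with ETS factors such as FLI1. RefSeq promoters of build GRCm38.p6, from 250 bases before to 50 after each gene's start, were held for 9 of the 10 genes, and Itgb3 was not among them. The letters searched, on both strands, were AGATAA and TGATAA, with either closing A also allowed to be G, for GATA factors, and for ETS factors AGGAAG and the form of it that opens with C. No base was shared between both motifs in these 9 promoters. The GATA letters stood in 5 of 9, against 29.8% of 32851 promoters, and the ETS letters in 7 of 9, against 46.5%. Both stood in 4 of 9, against 12.6% of all promoters. A match is a description of letters and not a bound site. Promoters of 4 genes are printed 5′ to 3′ along the gene's strand, with the matched letters in capitals. Gp1ba and Gp5 are shown because each holds 3 GATA matches and 1 ETS match, Pf4 because it holds 1 of each within the last 60 bases, and Gp9 because it holds an ETS match alone and had the widest gap between the LSD1 × p53+/- tumours among these 9. The windows are Gp1ba at chr11:70638872-70639171 on the plus strand, Gp5 at chr16:30310732-30311031 on the minus strand, Pf4 at chr5:90772185-90772484 on the plus strand and Gp9 at chr6:87777820-87778119 on the plus strand.
Gp1ba: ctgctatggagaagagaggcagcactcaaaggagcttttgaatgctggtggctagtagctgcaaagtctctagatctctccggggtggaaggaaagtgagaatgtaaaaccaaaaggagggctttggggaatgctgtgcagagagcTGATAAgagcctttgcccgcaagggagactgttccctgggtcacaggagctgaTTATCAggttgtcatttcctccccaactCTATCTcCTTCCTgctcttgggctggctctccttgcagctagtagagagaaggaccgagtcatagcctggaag
Gp5: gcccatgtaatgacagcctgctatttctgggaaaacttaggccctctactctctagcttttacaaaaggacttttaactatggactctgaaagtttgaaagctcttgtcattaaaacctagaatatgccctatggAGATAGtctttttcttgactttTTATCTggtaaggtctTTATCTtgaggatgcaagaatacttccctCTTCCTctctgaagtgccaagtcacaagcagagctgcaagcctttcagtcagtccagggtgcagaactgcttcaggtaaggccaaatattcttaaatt
Pf4: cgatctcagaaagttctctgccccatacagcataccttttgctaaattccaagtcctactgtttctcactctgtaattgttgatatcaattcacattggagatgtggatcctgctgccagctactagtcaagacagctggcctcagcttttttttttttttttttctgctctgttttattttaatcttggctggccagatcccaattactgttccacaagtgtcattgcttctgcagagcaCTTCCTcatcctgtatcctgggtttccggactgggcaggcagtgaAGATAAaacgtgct
Gp9: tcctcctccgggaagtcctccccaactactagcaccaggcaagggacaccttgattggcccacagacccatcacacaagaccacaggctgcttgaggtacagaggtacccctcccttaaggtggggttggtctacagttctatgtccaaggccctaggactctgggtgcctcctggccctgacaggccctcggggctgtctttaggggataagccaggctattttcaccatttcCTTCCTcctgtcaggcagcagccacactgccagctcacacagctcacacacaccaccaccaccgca

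Each tumour was read on its own 1-colour Agilent array. A level is the processed signal of a probe divided by the 75th percentile of its array, which was 712 for tumour #2, 554 for tumour #3 and 608 for the p53+/- tumour. Levels are compared for the same probe between tumours, not between probes. The share of spots well above background was between 51.5% and 55.6%, and no spot was saturated. Tumour #3 and the p53+/- tumour were read on the same slide, and tumour #2 on another, so a property of tumour #2 and an effect of its slide cannot be told apart, while tumour #3 and the p53+/- tumour are compared within a slide. The genes of the genotype's name, Kdm1a (LSD1) and Trp53 (p53), differed from the p53+/- tumour by 0.65 and -0.59 in tumour #2 and by 0.22 and -0.30 in tumour #3 (log2 differences). The error beside a level is the one that the scanner software's error model gave for that spot. For bright spots it is close to a fixed share of the signal, and it says nothing about the spread between mice. Repeats of a probe on an array were tighter, with a median SD of 0.0387 to 0.0414 (log2) over 300 probes spotted 10 times each. Since each gene of the group has 1 spot per probe, that figure is the scale of the within-array error and not an error of these genes.

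The chemokines Pf4 (platelet factor 4, CXCL4) and Ppbp (pro-platelet basic protein, the precursor of the neutrophil attractant CXCL7) are stored together in α granules. Pf4 had levels of 11.6 ± 1.16 in tumour #2 and 15.2 ± 1.52 in tumour #3, against 13.8 ± 1.38 in the p53+/- tumour. Ppbp had levels of 8.08 ± 0.81 in tumour #2 and 10.3 ± 1.03 in tumour #3, against 9.38 ± 0.94 in the p53+/- tumour. Both probes were lowest in tumour #2 and highest in tumour #3, with the p53+/- tumour between them. The distance was small: tumour #3 stood 1.31-fold above tumour #2 for Pf4 and 1.28-fold for Ppbp, and both were at most 1.19-fold from the p53+/- tumour in either LSD1 × p53+/- tumour. Ppbp and Pf4 lie next to each other on chromosome 5 of the mouse, with Cxcl5 on the other side of Ppbp. Cxcl5, a chemokine of the same cluster that is not a platelet marker, had levels of 0.22 in tumour #2 and 0.15 in tumour #3, against 0.15 in the p53+/- tumour.

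**Figure D1:**
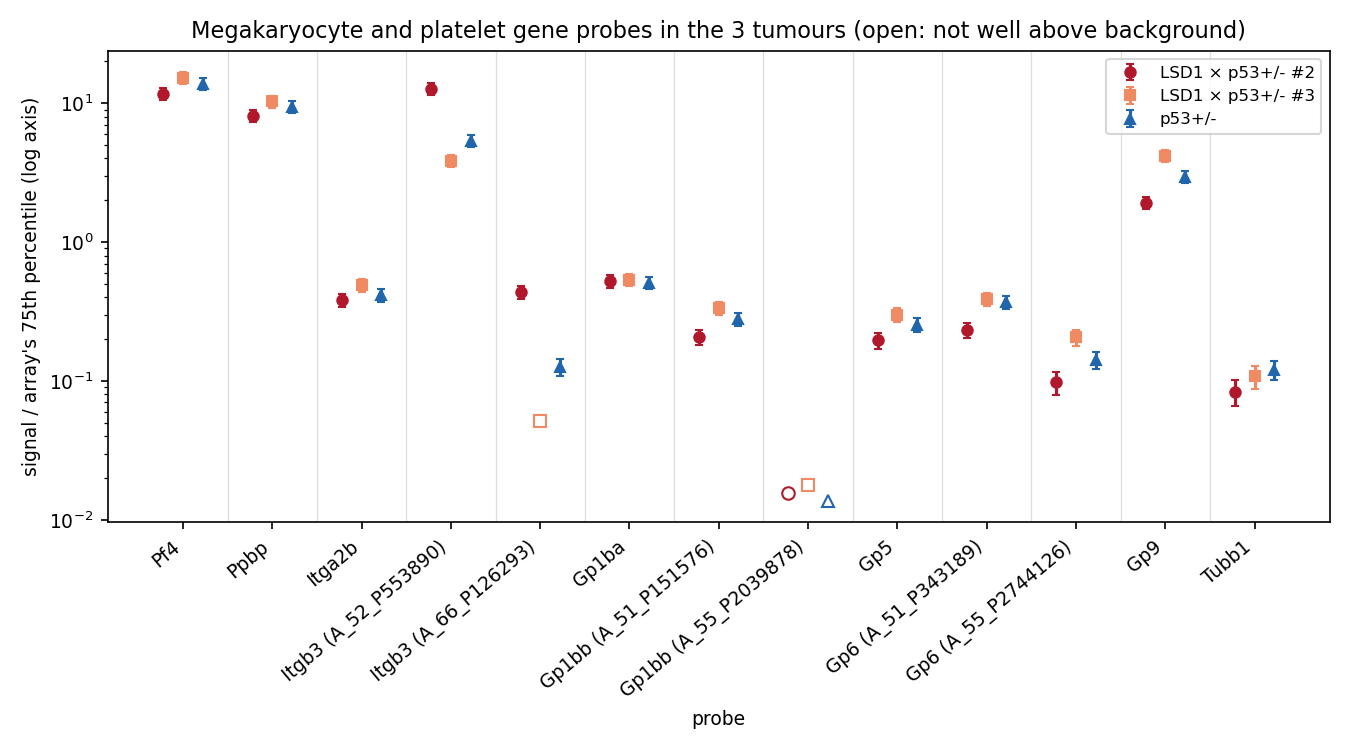
Level of each of the 13 probes (signal over the array's 75th percentile, log axis) in tumours #2 and #3 of LSD1 × p53+/- genotype and in the p53+/- tumour, with bars for the scanner software's error. The symbols of most probes lie close together, while both Itgb3 probes are highest in tumour #2, and open symbols mark spots not well above background.

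The GPIb-IX-V complex is the platelet's receptor for von Willebrand factor, and its lack gives a bleeding disorder with giant platelets in people. Gp1ba, the chain that binds von Willebrand factor, had levels of 0.522 in tumour #2 and 0.537 in tumour #3, against 0.510 in the p53+/- tumour. The highest and the lowest of these differed by 1.05-fold, less than the error of 1 spot. Gp9, which is needed to bring the complex to the cell surface, had levels of 1.92 ± 0.19 in tumour #2 and 4.20 ± 0.42 in tumour #3, against 2.95 ± 0.30 in the p53+/- tumour. Tumour #3 was 1.42-fold above and tumour #2 was 1.54-fold below the p53+/- tumour. Gp9 therefore had the widest gap between the LSD1 × p53+/- tumours of the 9 genes that were higher in tumour #3.

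Gp1bb, the chain linked to Gp1ba, was read by a pair of probes. The brighter (A_51_P151576) had levels of 0.207 in tumour #2 and 0.337 in tumour #3, against 0.277 in the p53+/- tumour. The other (A_55_P2039878) was not well above background on any array and gives no comparison. In the reference the Gp1bb gene overlaps Septin5, a cytoskeletal GTPase, whose own probe had levels of 0.180 in tumour #2 and 0.139 in tumour #3, against 0.153 in the p53+/- tumour. That order is not the one of Gp1bb. Gp5, the chain that thrombin can cleave, had levels of 0.197 in tumour #2 and 0.299 in tumour #3, against 0.254 in the p53+/- tumour. Gp1bb and Gp5 thus ran in the order seen for Gp9, with tumour #3 above tumour #2 by 1.63-fold and 1.52-fold.

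The integrin αIIbβ3 is the fibrinogen receptor through which platelets stick to each other. Its α chain Itga2b (CD41) is largely restricted to megakaryocytes and platelets in adults, while its β chain Itgb3 (CD61) also pairs with αV on other cells, osteoclasts and endothelial cells among them. Itga2b had levels of 0.382 in tumour #2 and 0.491 in tumour #3, against 0.416 in the p53+/- tumour. Itgb3 (probe A_52_P553890) had levels of 12.7 ± 1.27 in tumour #2 and 3.84 ± 0.38 in tumour #3, against 5.36 ± 0.54 in the p53+/- tumour. The chains of 1 receptor thus did not run together: Itgb3 was 2.37-fold higher in tumour #2 and 1.40-fold lower in tumour #3 than in the p53+/- tumour, while Itga2b was at most 1.18-fold from it in both. The order of Itga2b depended on the scaling. Its log2 difference in tumour #3 turned from 0.24 to -0.09 with the 75th percentile over detected probes and to -0.12 in the authors' table. The other Itgb3 probe (A_66_P126293) had levels of 0.435 in tumour #2 and 0.126 in the p53+/- tumour, and it was not well above background in tumour #3. It was 3.46-fold higher in tumour #2 than in the p53+/- tumour, at least 6.36-fold higher in tumour #2 than in tumour #3, and at least 1.84-fold lower in tumour #3 than in the p53+/- tumour. "At least" here sets the brighter level against the lowest level well above background on the dimmer array. Both probes therefore placed tumour #2 highest and tumour #3 lowest.

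Gp6, the collagen receptor that signals through the Fc receptor γ chain, was read by a pair of probes that were both above background on all arrays. The brighter (A_51_P343189) had levels of 0.232 in tumour #2 and 0.386 in tumour #3, against 0.368 in the p53+/- tumour. The dimmer (A_55_P2744126) had levels of 0.098 in tumour #2 and 0.206 in tumour #3, against 0.142 in the p53+/- tumour. Both had tumour #2 lowest, 1.66-fold and 2.11-fold below tumour #3. They disagreed on the size of the gap between tumour #3 and the p53+/- tumour, which was 1.05-fold by the brighter probe and 1.45-fold by the dimmer. Tubb1, the β1-tubulin of the platelet's marginal microtubule band, had levels of 0.084 in tumour #2 and 0.108 in tumour #3, against 0.120 in the p53+/- tumour. With the 75th percentile of all probes, it was the single gene of the group lower than the p53+/- tumour in both LSD1 × p53+/- tumours. The differences were 1.44-fold and 1.11-fold, and neither passed 2 combined spot errors. That depended on the scaling: with the 75th percentile over detected probes, and in the authors' table, 8 of 10 genes were lower in both. After quantile normalization the log2 difference of Tubb1 in tumour #3 turned to 0.05.

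**Figure D2:**
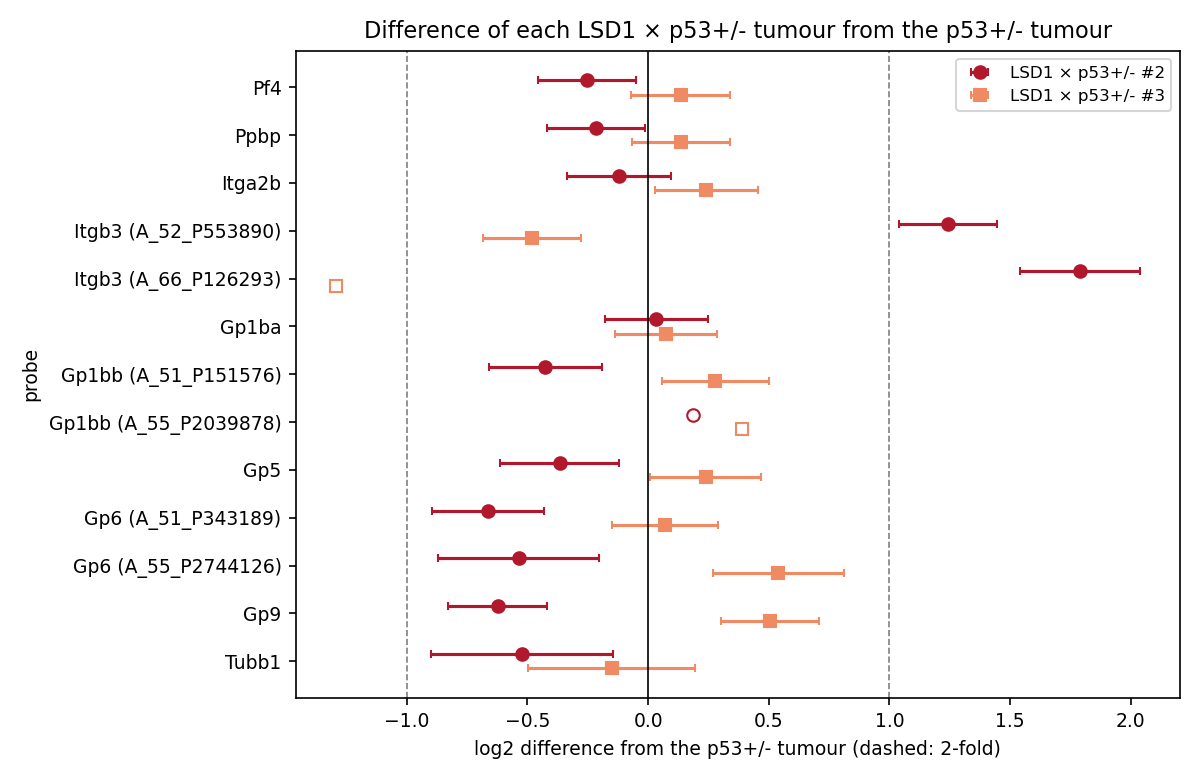
Log2 difference of each LSD1 × p53+/- tumour from the p53+/- tumour for the 13 probes, with bars for the combined spot error and dashed lines at 2-fold. The Itgb3 symbols of tumour #2 and an open symbol of tumour #3 (not well above background) are the ones beyond a dashed line, and most other probes have tumour #2 left of 0 and tumour #3 right of 0.

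The differences of the 11 probes that were above background on all arrays were set against the error of single spots. Tumour #2 differed from the p53+/- tumour by more than 1 combined error (0.204 to 0.378 on the log2 scale) at 9 of 11 probes and by more than 2 at 3, which were an Itgb3, a Gp6 and the Gp9 probe. Tumour #3 differed by more than 1 error at 6 and by more than 2 at 2, Itgb3 and Gp9. Between tumours #2 and #3, 9 of 11 probes were over 1 error and 6 over 2. In limma, with the LSD1 × p53+/- tumours as a group against the p53+/- tumour, the 10 genes had log2 differences of -0.34 (Tubb1) to 0.38 (Itgb3), with standard errors of 0.478 to 0.954 and adjusted p of 0.978 to 0.993. None passed, and neither did any of the 15240 genes (0% called, lowest adjusted p 0.967). At an unadjusted p under 0.05 limma counted 568 genes (3.73%), none of them in the group. The 95% intervals of the 10 differences reached from -2.52 to 3.28, both bounds being those of Itgb3. Among the other genes the widest was that of Gp9, from -2.25 to 2.13. Differences of several fold were thus not detectable with 1 array against 2. An exact permutation test of 1 tumour against 2 cannot give a two-sided p under 0.333. In 8 of 10 genes, all but Gp1ba and Tubb1, the mean difference between genotypes was smaller than the SD of the LSD1 × p53+/- pair.

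By size, the group's median log2 difference from the p53+/- tumour was -0.31 in tumour #2, where the median of all genes tested was 0.05, and 0.14 in tumour #3, where it was 0.16. The typical size of a difference, regardless of sign, was 0.40 in tumour #2 and 0.20 in tumour #3 for the group. It was 0.52 and 0.59 for all genes tested, and 0.47 and 0.53 for those above background on all arrays. Between tumours #2 and #3 it was 0.50 for the group, 0.53 for all genes tested and 0.46 for those above background on all arrays. Taken tumour by tumour, 1 gene of the group (Itgb3) was at least 2-fold higher in tumour #2 than in the p53+/- tumour (11.7% of all genes tested were) and none was at least 2-fold lower (11.5%). In tumour #3 none was at least 2-fold higher (15.2%) or at least 2-fold lower (11.5%). Between the LSD1 × p53+/- tumours, Itgb3 was more than 2-fold higher in #2 than in #3 (11.1% of all genes tested) and Gp9 more than 2-fold higher in #3 than in #2 (14.0%). The order with tumour #3 highest, the p53+/- tumour between and tumour #2 lowest was found in 7 of 10 genes, against 19.3% of all genes tested and 20.0% of those above background on all arrays. That count depended on the scaling: it was 8 with normexp background correction (20.4% of all genes tested) and 6 with quantile normalization (18.5%), but 1 with the 75th percentile over detected probes (14.6%) and 1 in the authors' table (16.1%). The genes of the group share the same 3 RNA samples and the same 3 array factors, so genes with a common order are not separate observations.

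**Figure D3:**
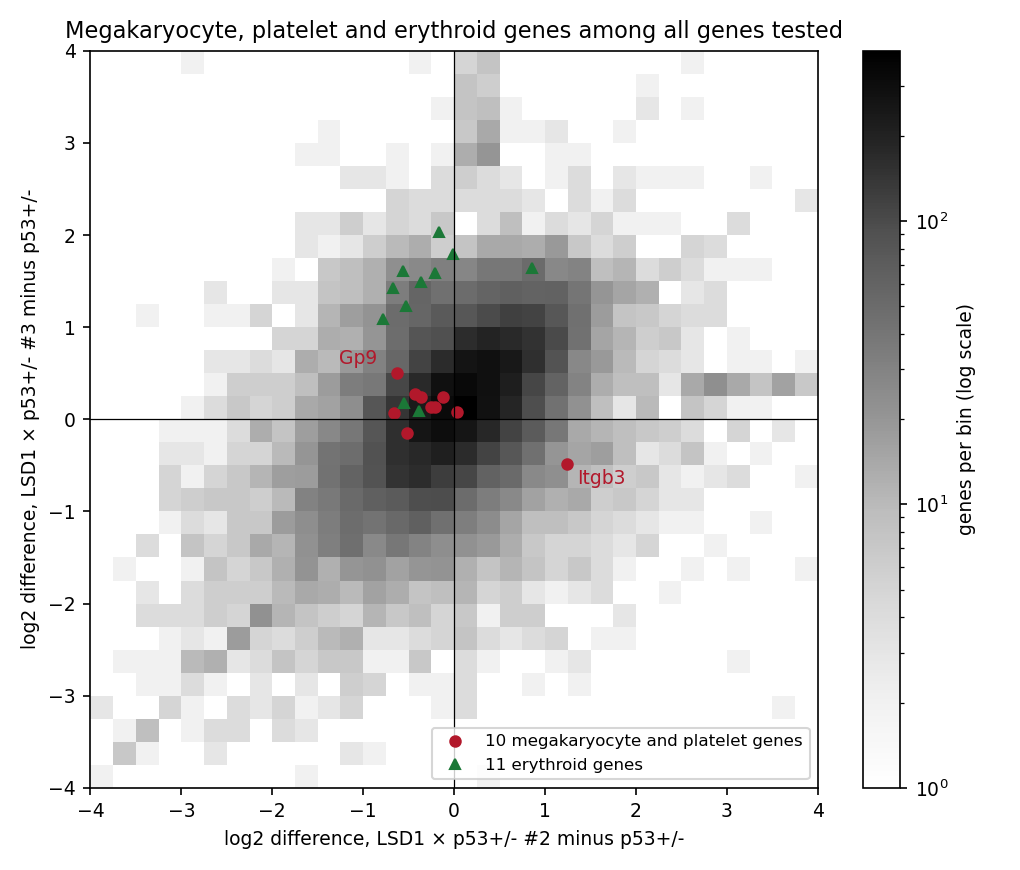
Each gene's log2 difference from the p53+/- tumour, in tumour #2 (horizontal) and tumour #3 (vertical), for the 10 megakaryocyte and platelet genes (circles) and 11 erythroid genes (triangles) over the 15240 genes tested (grey, genes per bin), of which 242 lie beyond the range shown. All circles but Itgb3 lie near the centre, while 9 of 11 triangles lie above 1 on the vertical axis.

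The direction against the p53+/- tumour depended on how the arrays were scaled, and the order of the LSD1 × p53+/- tumours changed little. Tumour #3 was above tumour #2 in 8 or 9 of 10 genes under all 5 scalings, where the share of all genes tested ran between 43.5% and 56.3%. Tumour #2 was below the p53+/- tumour in 8 or 9 of 10 genes under all 5. Tumour #3 was above the p53+/- tumour in 8 genes with the 75th percentile of all probes and with normexp background correction, and in 7 with quantile normalization. With the 75th percentile over detected probes, and in the authors' value table, it was above in 1 gene, Gp9. Under the authors' table the median of all genes tested itself lay at -0.16 in tumour #2 and -0.20 in tumour #3, where the group's medians were -0.52 and -0.23. Pf4 ran from 0.13 to -0.35 across the scalings in tumour #3, and Ppbp from 0.14 to -0.27. Itgb3 and Gp9 kept their signs under all 5 in each of these contrasts, with Itgb3 in tumour #2 above tumour #3 and Gp9 the other way, although the gap of Gp9 fell just short of 2-fold under 3 of the 5, with log2 differences between -0.91 and -0.98.

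**Figure D4:**
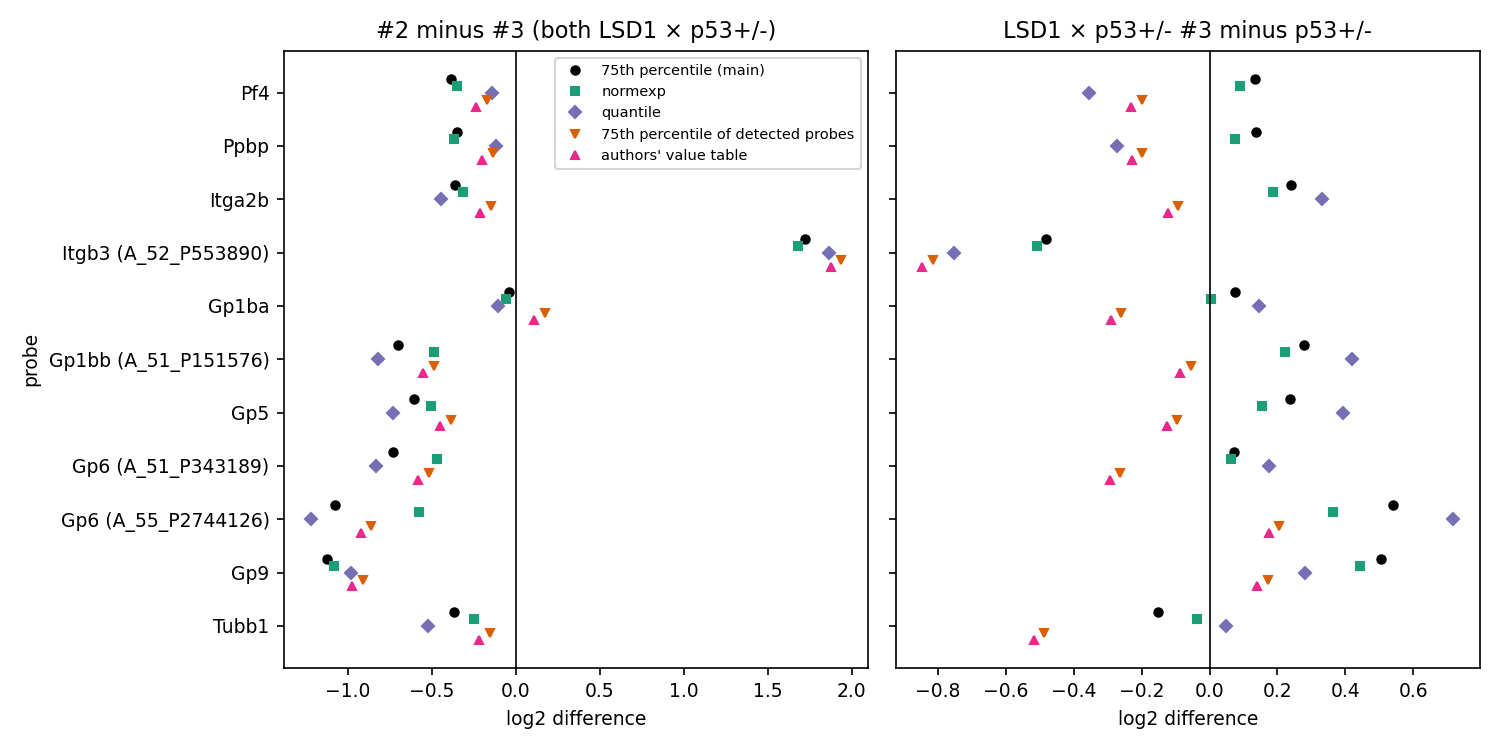
Log2 differences of the 11 probes above background on all arrays under 5 scalings, for tumour #2 minus tumour #3 (left) and tumour #3 minus the p53+/- tumour (right). On the left, symbols of a probe stay on the same side of 0 for all but Gp1ba, and on the right those of most probes fall on both sides.

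The transcription factors known to drive megakaryocyte formation differed from the p53+/- tumour in both directions in tumour #3, 5 of 12 by 2-fold or more upward (15.2% of all genes tested were) and 2 of 12 by 2-fold or more downward (11.5%). The list was drawn up, like the ones below, with earlier results of these data known. All 12 were above background on all arrays. In tumour #3, 9 were higher and 3 lower than in the p53+/- tumour (median log2 difference 0.70), and in tumour #2, 1 was higher and 11 were lower (median -0.42). Of these 9, 5 were at least 2-fold higher in tumour #3, and all 5 are factors that erythroid cells also use. Gata1, the zinc-finger factor of both lineages, had levels of 7.98 in tumour #2 and 35.2 in tumour #3, against 10.1 in the p53+/- tumour. Its cofactor Zfpm1 (FOG1) had levels of 12.4 in tumour #2 and 47.9 in tumour #3, against 14.1 in the p53+/- tumour. These were 3.47-fold and 3.39-fold higher in tumour #3 than in the p53+/- tumour, and both lay slightly below it in tumour #2, although the dimmer Zfpm1 probe gave log2 differences of 0.66 in tumour #2 and 1.42 in tumour #3.

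The repressor Gfi1b had levels of 3.12 in tumour #2 and 13.01 in tumour #3, against 4.45 in the p53+/- tumour. Nfe2, a factor needed for platelet release, had levels of 7.66 in tumour #2 and 29.4 in tumour #3, against 10.4 in the p53+/- tumour. Tal1, a basic helix-loop-helix factor of blood stem cells and of both lineages, had levels of 7.33 in tumour #2 and 22.99 in tumour #3, against 8.37 in the p53+/- tumour. All 5 stayed at least 2-fold higher in tumour #3 under the 5 scalings, with Tal1 the nearest to that limit at a log2 difference of 1.01 after quantile normalization. Lyl1, a relative of Tal1, had levels of 7.96 in tumour #2 and 38.8 in tumour #3, against 25.3 in the p53+/- tumour.

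The factors that ran the other way were the ETS factor Fli1, the homeobox factor Meis1 and Runx1. Fli1, a known regulator of Itga2b, Gp9 and Pf4, had levels of 2.77 in tumour #2 and 1.59 in tumour #3, against 3.66 in the p53+/- tumour. Meis1 had levels of 0.514 in tumour #2 and 0.376 in tumour #3, against 0.907 in the p53+/- tumour. Both were more than 2-fold lower in tumour #3, where Gata1 was more than 3-fold higher, and where Gp9 and Itga2b were 1.42-fold and 1.18-fold higher. The value of Itga2b there turned below 0 under 2 scalings. Runx1 was lower by its brightest probe (log2 differences of -0.48 in tumour #2 and -0.75 in tumour #3), but another of its probes gave 0.12 and 0.37, so its direction is not settled. Gata2 differed by -0.56 in tumour #2 and 0.71 in tumour #3, and Mafg, the small Maf partner of Nfe2, by 0.20 and 0.69, though Mafg in tumour #2 turned to -0.02 in the authors' table. Etv6 differed by -0.33 in tumour #2 and by 0.16 in tumour #3, with the second value turning below 0 under 3 scalings. None of the 12 passed limma's adjusted threshold.

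**Figure D5:**
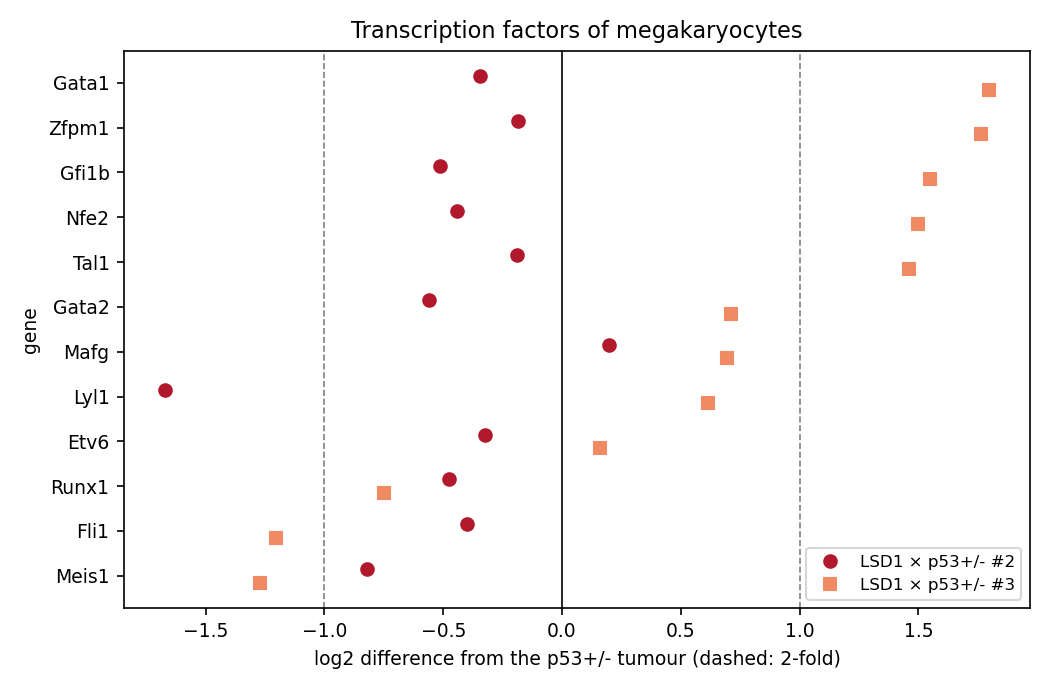
Log2 differences from the p53+/- tumour of 12 transcription factors of megakaryocytes, in tumour #2 and tumour #3 of LSD1 × p53+/- genotype, with dashed lines at 2-fold. In tumour #3 the factors Gata1, Zfpm1, Gfi1b, Nfe2 and Tal1 lie beyond 2-fold to the right and Fli1 and Meis1 beyond 2-fold to the left.

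Thrombopoietin is the hormone that makes megakaryocytes grow, and it signals through the kinase Jak2. Thpo itself differed by 0.28 in tumour #2 and by 0.40 in tumour #3 (log2), Jak2 by 0.04 and 0.08, Stat5a by 0.39 and 0.31, and Stat5b by -0.67 and -0.41. Sh2b3, an adaptor that restrains Jak2 signalling, differed by -0.73 and -0.68 by its brightest probe, while another of its 4 probes gave 0.27 in tumour #3. The dimmer probes of Jak2 and Stat5a gave -0.11 and -0.09 in tumour #2 and -0.79 and 0.19 in tumour #3. By its brightest probe, none of the 6 genes reached 2-fold in either tumour. The differences of Jak2 in both tumours, and of Stat5a in tumour #3, turned sign under other scalings.

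Across these 6, the 12 factors and 3 further lists of platelet biology, 74 of 75 genes were tested and 71 were above background on all arrays. Of the 74, 27 (36.5%) were within 1.5-fold of the p53+/- tumour in both LSD1 × p53+/- tumours, close to the 32.6% of all genes tested and the 37.5% of those above background on all arrays. None was at least 2-fold higher in both (3.48% of all genes tested) and 1 was at least 2-fold lower in both (5.38%), with limma's adjusted p at 0.967 or above throughout. That gene was Cd226, an adhesion receptor of platelets that T and NK cells also carry, with levels of 0.113 in tumour #2 and 0.0974 in tumour #3, against 0.390 in the p53+/- tumour. Among the 19 other platelet receptors, the median log2 difference was -0.23 in tumour #2 and -0.01 in tumour #3. Tbxa2r, the thromboxane receptor, differed by -1.76 and -0.78, Itga6, the laminin receptor chain, by -0.90 and -0.32, and Selp, the P-selectin of α granules and of endothelium, by -0.74 and -0.61.

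Granule cargo and granule formation genes had medians of -0.29 in tumour #2 and -0.24 in tumour #3 over 18 genes. Clu (clusterin), which many other cell types also make, had levels of 45.4 in tumour #2 and 18.0 in tumour #3, against 67.7 in the p53+/- tumour. The growth factor chain Pdgfa differed by -0.43 in tumour #2 and -1.14 in tumour #3 (log2), coagulation factor F5 by -0.90 and -0.63, and Pdgfb by 0.68 and 0.31, though Pdgfb in tumour #3 turned below 0 under 2 scalings. Among the 19 signalling and cytoskeleton genes tested (Cmtm5 was not above background), the medians were -0.33 and -0.17. Plcg2, a phospholipase of the Gp6 pathway and of B cell receptors, differed by -2.35 in tumour #2 and 0.12 in tumour #3, and Syk, the kinase upstream of it in both, by -1.84 and -0.33. Cavin2 differed by -1.39 and -0.17, and the actin crosslinker Flna by -0.77 and -0.70 by its brightest probe and by -0.13 and -0.43 by another. Plcg2 in tumour #3 turned below 0 under 3 scalings. Plcg2 and Syk were lowest in the tumour in which B cell markers were lowest, as given next, and the part of B cells in their values was not tested.

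Markers of other spleen cells were read as well, since the tissue is mixed. All 11 erythroid genes tested were higher in tumour #3 than in the p53+/- tumour, with a median log2 difference of 1.49 and 9 of them by at least 2-fold (15.2% of all genes tested were), and 10 of 11 were lower in tumour #2 (median -0.39). Klf1, the erythroid Krüppel-like factor, differed by -0.16 in tumour #2 and 2.03 in tumour #3, and Tfrc (the transferrin receptor) by 0.86 and 1.65. Their summed level, in which the globins weigh most, was 897 in tumour #2 and 1614 in tumour #3, against 1248 in the p53+/- tumour. Hba-a1 and Hbb-bt were the 2 that stayed under 2-fold in tumour #3, and both turned sign there under other scalings. The count at least 2-fold higher also depended on the scaling. Alas2 and Slc4a1 fell to 0.70 and 0.91 in tumour #3 after quantile normalization. They were also under 2-fold with the 75th percentile over detected probes and in the authors' table. The order with tumour #3 highest and tumour #2 lowest was found in 10 of 11 erythroid genes, all but Tfrc. Hba-a1 and Hbb-bt lost it with the 75th percentile over detected probes and in the authors' table. It was also the order of Gata1, Zfpm1, Gfi1b, Nfe2 and Tal1 by the brightest probe of each, under all 5 scalings. Of the 10 platelet genes 7 had it, but 1 with the 75th percentile over detected probes and 1 in the authors' table. The part of erythroid cells in these values was not tested.

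Lymphocyte markers of the spleen had the largest median difference of the lists read in tumour #2. Of 8 genes, all above background on all arrays, 5 were lower in tumour #2 and 8 in tumour #3 than in the p53+/- tumour (medians -2.62 and -1.27), with summed levels of 132 in tumour #2 and 82.4 in tumour #3, against 140 in the p53+/- tumour. The B cell genes Cd79a and Cd22 differed by -2.92 and -2.78 in tumour #2 and by -0.94 and -1.81 in tumour #3, and the T cell gene Cd8a by -3.47 and -1.94. The T cell receptor component Cd3d, by contrast, had levels of 82.5 in tumour #2 and 5.51 in tumour #3, against 16.0 in the p53+/- tumour. Among the 10 genes of the group, Itgb3 alone had tumour #2 highest and tumour #3 lowest, the order of Cd3d but not of Cd8a. The order was not particular to Itgb3 among platelet genes. In the granule list, Thbs1 (0.93 in tumour #2 and -0.33 in tumour #3) and Nbeal2 (0.61 and -0.95) also had it, though 13 of its 18 genes were lower in tumour #2. The part of T cells in the Itgb3 values was not tested.

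Mast cell and basophil markers, a lineage that shares Gata2 and Gata1 with megakaryocytes, had medians of 0.94 in tumour #2 and 0.87 in tumour #3 over 8 genes, and summed levels of 5.58 and 4.02, against 3.00 in the p53+/- tumour. A count of 3 of the 8 (Cpa3, Mcpt8 and Prss34) was at least 2-fold higher in both LSD1 × p53+/- tumours, against 3.48% of all genes tested. That count depended on the scaling. With normexp correction Cpa3 fell to a log2 difference of 0.91 in tumour #3, and Mcpt8 and Prss34 to 0.74 and 0.77 in tumour #2, all under 2-fold. In the authors' table Mcpt8 fell to 0.95 in tumour #2. Mcpt8 differed by 1.16 in tumour #2 and 2.43 in tumour #3, Prss34 by 1.38 and 2.42, Hdc by 2.10 and 0.83, and Kit by -1.32 and -0.81. Cpa3 was not well above background in the p53+/- tumour and was at least 7.29-fold higher in tumour #2 and at least 3.35-fold higher in tumour #3. The list did not run 1 way: the mast cell chymase Cma1 differed by -0.44 in tumour #2, and in tumour #3 it was not well above background and at least 4.75-fold lower. Tpsb2 differed by 0.72 in tumour #2 and -0.09 in tumour #3, the second value turning above 0 after quantile normalization, and Ms4a2 by 0.24 and 0.91, with its value in tumour #2 turning below 0 after normexp correction. The 8 stem and progenitor markers had medians of -0.69 in tumour #2 and -0.91 in tumour #3 and summed levels of 4.92 and 4.04, against 6.21 in the p53+/- tumour. Slamf1 differed by -1.56 and -1.80 and Mycn by -1.70 and -1.01. Kit, Gata2 and Meis1 stand on 2 lists each, as does Esam, which is on the platelet receptor and the endothelial list.

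Endothelial cells express von Willebrand factor, P-selectin and β3 integrin as well, so their markers bear on several of these genes. The 10 endothelial genes had medians of -0.50 in tumour #2 and -0.34 in tumour #3, and summed levels of 20.3 and 31.5, against 33.5 in the p53+/- tumour. Kdr differed by -1.35 in tumour #2 and -0.58 in tumour #3, Robo4 by -1.37 and -0.67, Stab2 by -0.997 and -0.494, and Emcn by 1.33 and 0.94. The brightest probes weigh most in that sum. In tumour #2, 8 of the 10 endothelial genes were lower than in the p53+/- tumour and 2 were higher. The 8 macrophage genes had medians of -0.33 and -0.08 and summed levels of 127 in tumour #2 and 164 in tumour #3, against 165 in the p53+/- tumour. Adgre1 (F4/80) differed by -1.61 in tumour #2 and -0.09 in tumour #3, Mrc1 by -1.01 and -0.24, Vcam1 by -0.30 and -0.62, and Cd163 by 0.22 and -1.37. The part of these cells in the Itgb3 values was not tested.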

How the data were processed

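Total RNA labelled with Cy3 of each tumour was put on an Agilent mouse array of its own, per the labels' protocols. The scanner files hold spot intensities from Agilent Feature Extraction 11.5.1.1, background-subtracted and detrended within each array but not scaled between arrays, per the file headers. The other deposited table repeats these intensities, multiplied by a factor for each array (0.779, 0.902 and 1.06 for tumour #2, tumour #3 and the p53+/- tumour), and what the authors set the factors on is not given in the sources used here. Its column medians were 54.2, 43.5 and 64.2.

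The processed signal was divided by the array's 75th percentile over non-control spots and taken as log2. Outlier spots (113 to 128 an array) were left out, and spots of a probe were averaged. Probes were named through RefSeq accessions in a table of assembly GRCm38.p6, used for names, gene neighbours and promoters. The array's design is on mm9, so no probe coordinates are given. Of 47837 identifiers, 25126 matched. A gene was read by its named probe of highest mean log2 signal, and was tested where at least 1 array had that probe well above background: 15240 of 22908 genes with values, 12812 of them above background on all arrays. All 10 genes of the group passed on all 3 arrays.

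Differences were tested with limma 3.58.1 in R 4.3.3 over all genes tested (Benjamini-Hochberg, threshold 0.05). The fit has 1 residual degree of freedom, 3.27 with the prior, and takes the lone p53+/- tumour to vary like the LSD1 × p53+/- pair. The p-values thus set the mean difference against the spread of that pair, moderated by the prior. The pair was read on different slides, and no spread of the p53+/- genotype enters. The steps were tested on simulated data. Counts by size have no test, and asked for the brighter side to be above background. The text names all 10 genes with every probe, all transcription factor and thrombopoietin genes, and up to 4 genes of each other list with the largest mean difference. A few genes that this rule would name are not reported here, though the list counts hold them. Cd3d, Cpa3, Cma1, Tpsb2, Ms4a2, Thbs1, Nbeal2, Cxcl5, Septin5, Hba-a1, Hbb-bt, Kdm1a and Trp53 are named outside that rule, after their values were seen. So are Alas2, Slc4a1 and Esam. The group and all lists were chosen with earlier results of these data known. Ahsp was not named in the gene table and is not analysed here. Alternatives were normexp background correction, quantile normalization, the 75th percentile over detected probes, the authors' table, other filters on dim probes, the mean of a gene's probes, the slide as a block, and leaving out each replicate.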

Additional observations from a re-analysis of the deposited data

How the results depend on the processing

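The count of genes called by limma was 0 in every alternative in which it could be fitted. With the slide as a block, or without a replicate, no residual degree of freedom is left, so limma was not run there. No paired analysis was possible because the 2 genotypes share no replicate number. Genes at least 2-fold higher in both LSD1 × p53+/- tumours numbered 323 with normexp correction, 274 with the 75th percentile over detected probes and 219 in the authors' table, against 531. Genes at least 2-fold lower in both numbered 395, 1266 in the authors' table and 416 among genes above background on all arrays, against 820. With the slide as a block, where tumour #3 and the p53+/- tumour are left, the counts were 2321 and 1749, and without each replicate they ran from 1777 to 2321 and from 1749 to 1750. In the group of 10, the count at least 2-fold higher was 0 or 1 without each replicate, the 1 being Itgb3 when tumour #3 is left out, and the count lower was 0. The group's median difference of tumour #3 from the p53+/- tumour was -0.20 with the 75th percentile over detected probes and -0.23 in the authors' table, against 0.14, and the cause was not tested. Normexp was run on the median spot signal. Of the values of single probes and genes under these alternatives, 101 moved by less than the SD of the LSD1 × p53+/- pair and 23 by more. That SD is each probe's or gene's own, so the 101 include values that turned sign. Gp5 in tumour #3, for example, went from 0.24 to -0.13 in the authors' table. The 101 also include genes with 1 probe, which cannot move when a gene's probes are averaged. Of 13 probes, 11 were above background on all arrays, and 3 arrays limit the precision of all values.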
